A study of Mus musculus with 12 samples.

Results

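Interferon response genes are the genes that cells switch on when interferon reaches its receptors, and 48 of them were followed here across 4 groups of Lewis lung carcinoma (LLC) tumors. They were chosen by name: 10 type I-like genes of the Ifit, Oas and Mx families, 10 gamma-like genes of the Gbp and immunity-related GTPase families with Irf1, 5 regulators, 14 antiviral effectors, 7 ubiquitin and ADP-ribose enzymes and 2 genes of the galectin group. Each was read from the probe set that carried its symbol alone and had the highest mean log2 intensity over the 12 arrays. Of the 48 genes, 46 had such a probe set among 18193 genes on the array. Ifi44 had none here, and the probe set for Tgtp1 also carried another symbol. Of the 46, 45 were among the 12735 genes tested, because the mean log2 intensity of Oas3, 5.35, lay under the limit of 5.37 set by the dimmest 30% of genes.

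LLC is a mouse lung cancer line, and the cells were grown under the skin of C57BL/6 mice that were female and 6 to 8 weeks old. Treatment was randomized at a tumor volume of 60 to 80 mm3 and tumors were collected on day 19. All 12 tumors thus came from the same line and from antibody-treated mice. The control group had 13C4, an isotype control antibody, without radiation. The 1D11 group had 1D11, an antibody that neutralizes TGF-beta, without radiation. The radiation group had 13C4 with radiation, and the 1D11_radiation group had 1D11 with radiation. Each group held 3 tumors. The labels give the radiation as 5 fractions of 6 Gy in the characteristics and as 2 Gy in the descriptions. Whole tumors were measured, so fewer cells of a type and less RNA per cell cannot be told apart. Nothing in the labels ties a replicate to its own animal, so p-values measure the spread between these samples. The epithelial markers fixed for the tumor cells were above the limit for 4 of 5 genes, and Cdh1 was dim.

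Type I interferons signal through Ifnar1 and Ifnar2 to a complex that holds Stat2 and Irf9 and binds the interferon-stimulated response element (ISRE) of genes such as Ifit1 and Mx1. Interferon gamma, made mainly by T cells and natural killer cells, signals through Ifngr1 and Ifngr2 to the gamma-activated site (GAS) of genes such as Irf1, which in turn drives the guanylate-binding proteins and the immunity-related GTPases. Many members answer to both signals, so the names type I-like and gamma-like describe gene families and not a measured source.

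Promoter sequences show these elements in some members and not in others. RefSeq windows on GRCm38.p6, each of 300 bases from 250 before to 50 after an annotated start, were found for 40 of the 48 genes. The ISRE was searched as GAAA, any 2 bases and GAAA, and the GAS as TTC, any 3 bases and GAA, each on both strands. An ISRE match lay in the windows of 21 of 40 members (52.5%), against 3.99% of 27025 genes with a window. A GAS match lay in 14 of 40 (35.0%), against 9.55% of those genes. In 8 members both were present, and in 2 member windows the matches overlapped. Among gamma-like members 7 of 9 had an ISRE match and 5 of 9 a GAS match. Among type I-like members the counts were 4 of 7 and 2 of 7. The 160 bases before the start are printed on the plus strand, with matches in capitals, for 6 members. Ifit1, Gbp2 and Ifi47 are shown because their levels are given further on, and Ifit3, Igtp and Irgm2 because they carry the same arrangement of matches as another member. Ifit1 and Ifit3 each carry a pair of ISRE matches, Gbp2 carries 1, and Igtp and Irgm2 carry a GAS match followed by an ISRE match. The window of Ifi47 held neither pattern, which says only that these letters are not in it.
Ifit1: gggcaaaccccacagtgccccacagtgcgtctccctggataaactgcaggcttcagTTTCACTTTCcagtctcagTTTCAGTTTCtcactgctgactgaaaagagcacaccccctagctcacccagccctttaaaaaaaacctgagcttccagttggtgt
Ifit3: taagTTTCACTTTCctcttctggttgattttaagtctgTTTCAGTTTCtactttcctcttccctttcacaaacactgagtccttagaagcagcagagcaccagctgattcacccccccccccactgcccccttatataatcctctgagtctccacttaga
Gbp2: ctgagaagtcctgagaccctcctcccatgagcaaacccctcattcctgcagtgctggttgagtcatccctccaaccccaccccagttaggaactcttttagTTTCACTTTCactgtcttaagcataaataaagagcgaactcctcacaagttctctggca
Igtp: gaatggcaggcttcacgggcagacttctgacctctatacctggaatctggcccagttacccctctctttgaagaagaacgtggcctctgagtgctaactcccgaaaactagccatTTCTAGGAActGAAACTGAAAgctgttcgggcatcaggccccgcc
Irgm2: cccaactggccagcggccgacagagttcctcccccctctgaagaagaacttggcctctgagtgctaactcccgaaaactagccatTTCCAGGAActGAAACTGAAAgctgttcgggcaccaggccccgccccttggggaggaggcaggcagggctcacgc
Ifi47: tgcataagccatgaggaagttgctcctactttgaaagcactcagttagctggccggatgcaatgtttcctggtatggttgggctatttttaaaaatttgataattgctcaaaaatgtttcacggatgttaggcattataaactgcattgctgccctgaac

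The printed stretches are chr19:34640729-34640888, chr19:34583369-34583528, chr3:142620503-142620662, chr11:58199396-58199555, chr11:58214817-58214976 and chr11:49076427-49076586, in that order. In Igtp and Irgm2 the first base of the GAS match lies 11 bases before the first base of the ISRE match, and the spacing was also 11 in Tgtp1. The ISRE matches of Ifit1 begin 104 and 85 bases before the start, and those of Ifit3 begin 156 and 122 bases before it. The Gbp2 match begins 59 bases before the start. A match is a description of the letters and was not tested as a binding site.

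Across the 12 tumors, interferon response genes were highest in 1D11 tumors without radiation and most often lowest in 1D11_radiation tumors. The 1D11 group had the highest group mean for 40 of 45 members, where 34.0% of all genes tested had their highest mean in that group. The lowest group mean lay in 1D11_radiation for 27 members, against 24.9% of all genes, and in control for 15, against 32.8%, so the share of members lowest in control was near that of all genes. The level of each list was summarised per tumor as the mean of its members' log2 intensities, each centred on the gene's mean over the 12 arrays. For all 45 members it was -0.18, 0.13 and -0.41 in the control tumors and 0.17, 0.43 and 0.28 in the 1D11 tumors. It was -0.08, 0.07 and 0.11 in the radiation tumors and -0.20, -0.12 and -0.20 in the 1D11_radiation tumors. Thus every 1D11 tumor lay above every irradiated tumor, while control replicate 2 lay above all 3 radiation tumors. Single tumors weighed on this: 1D11 replicate 2 was the highest tumor for 29 members, and control replicate 3 was the lowest for 23.

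**Figure D1:**
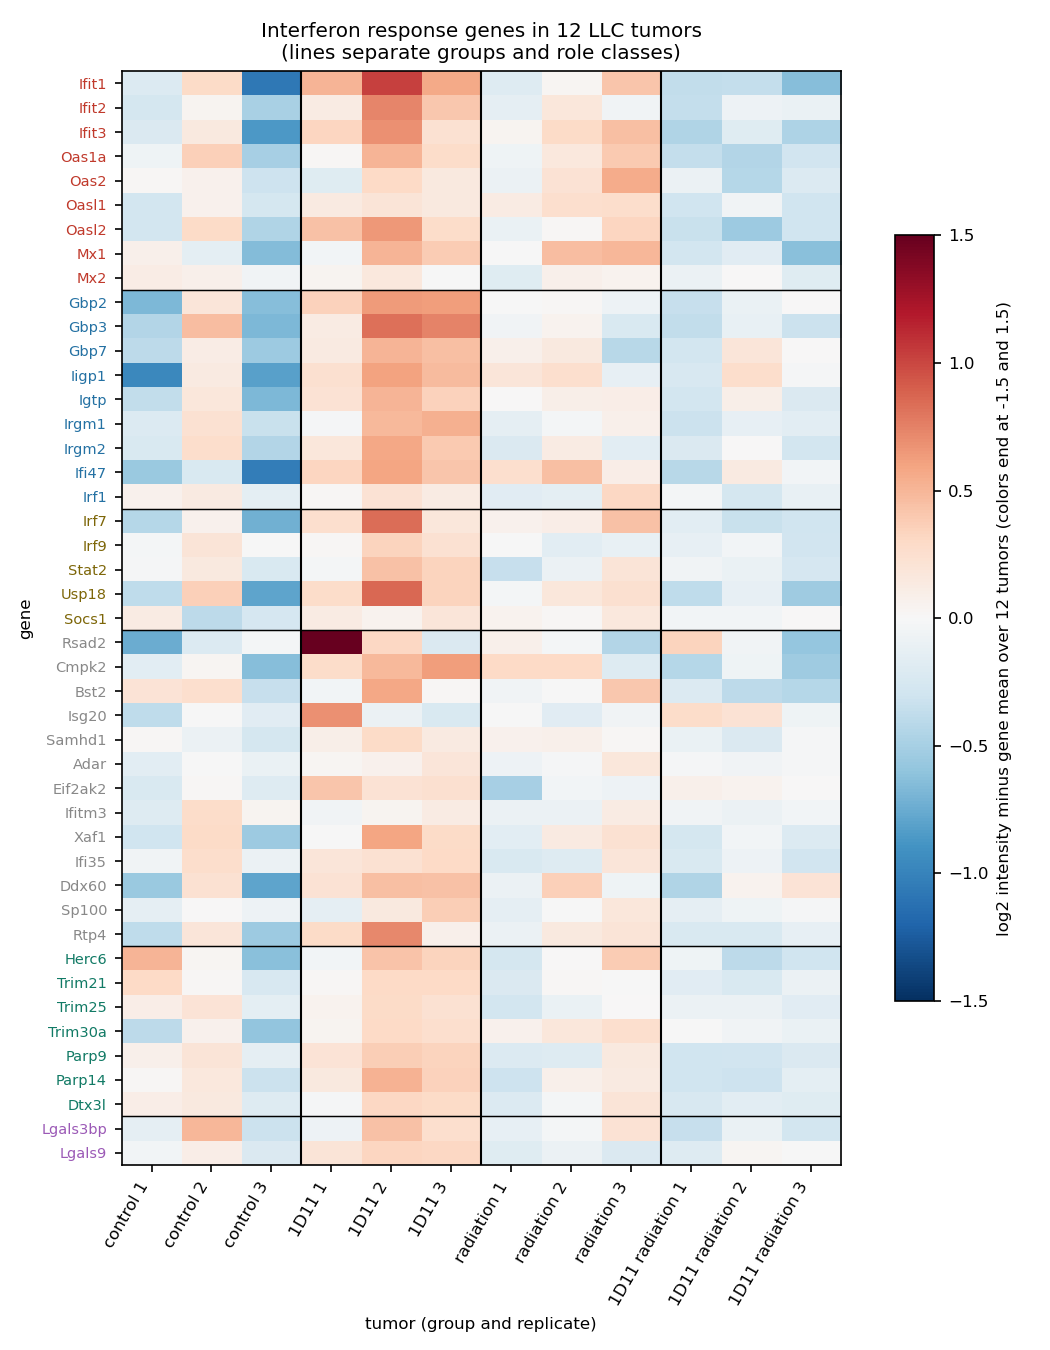
Each row is 1 of the 45 tested genes and each column 1 tumor; color gives the log2 intensity minus the gene's mean over the 12 tumors, and black lines separate the groups and the role classes. The 1D11 columns are the reddest, replicate 2 most of all, and control replicate 3 is the bluest column.

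Antibody 1D11 alone went with higher means of nearly all members, but no member passed the test. Against control, 44 of 45 members had a higher mean in 1D11, where 62.1% of all genes did. The median difference was 0.39 on the log2 scale, and that over all genes was 0.04. No member was called by limma at an adjusted p under 0.05, and 0.0157% of all genes were. At an unadjusted p under 0.05, 29 members were higher and none was lower, against 9.01% of all genes higher. The 3 tumors of 1D11 lay above the 3 control tumors without overlap for 16 members, against 12.1% of all genes. That count became 30 without control replicate 2, with 20.4% of all genes, and also 30 without 1D11 replicate 1, with 17.6%. Without control replicate 2, 5 members were called, against 0.165% of all genes.

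Adding radiation to 1D11 went with lower means of nearly all members. Against 1D11 alone, 44 of 45 members had a lower mean in 1D11_radiation, where 57.6% of all genes did, and Isg20, an exonuclease that degrades viral RNA, differed by 0.02. The median difference was -0.44, where that over all genes was -0.03. No member was called, against 0.0785% of all genes, and the lowest adjusted p in limma was 0.0596 for Parp9. At an unadjusted p under 0.05, 30 members were lower, against 10.3% of all genes, and none was higher. The groups did not overlap for 37 members, all lower, against 16.5% of all genes. The 8 members that overlapped were Oas2, Mx2, Gbp7, Iigp1, Rsad2, Isg20, Ifitm3 and Sp100. With limma's array weights, which give less weight to arrays that fit the group means less well, 29 members were called lower, where 11.7% of all genes were called. Without control replicate 1 or control replicate 2, whose tumors are not in this comparison but enter its estimate of spread, 2 members were called, against 1.78% and 0.173% of all genes. Without radiation replicate 3 it was 1 member, against 0.173%.

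Radiation under the control antibody went with higher means of some members and lower means of others. Against control, 33 of 45 members had a higher mean after radiation, where 49.6% of all genes did, and the median difference was 0.16. Ifi47 was the only member called, against 2.39% of all genes, which is near the background. Radiation tumors lay above control tumors without overlap for 4 members, Oasl1, Ifi47, Irf7 and Trim30a, against 10.6% of all genes. Those counts rested on the control tumors. Without control replicate 2, 5 members were called, against 1.3% of all genes, and 21 lay higher without overlap, against 15.8%. Without control replicate 3 the median fell to 0.07, and without control replicate 2 it was 0.25. The count higher without overlap was 7 without control replicate 1 and 8 without radiation replicate 3, against 19.1% and 19% of all genes, so both lay near or under the background. Without radiation replicate 3, 2 members were also lower without overlap, against 17% of all genes.

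Radiation with 1D11 went with lower values than radiation with 13C4 for 39 of 45 members, where 49.2% of all genes were lower. The median difference was -0.18. No member and no other gene was called by limma (0% of all genes), and at an unadjusted p under 0.05, 9 members were lower, against 2.66% of all genes. The groups did not overlap for 15 members that were lower, against 6.12% of all genes. Eif2ak2 was the single member that was higher without overlap, against 7.3% of all genes. Against control, 1D11_radiation had a higher mean for 17 members and a lower mean for 28, where 50.6% of all genes were lower, with a median of -0.06. No member was called there, against 2.35% of all genes, and without control replicate 2 the median turned to 0.06 and 1 member was called, against 1.72% of all genes.

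The difference of radiation's effect under 1D11 from its effect under 13C4, the interaction, was below 0 for 45 of 45 members, where 57.8% of all genes were below 0. The median was -0.61, and that over all genes was -0.03. No gene of the 12735 was called for it in limma (0%). At an unadjusted p under 0.05 there were 26 members, against 5.1% of all genes below 0. The values ran from -1.58 for Ifit1 to -0.03 for Ifitm3, a membrane protein that blocks virus entry. Members moved together from tumor to tumor: the median Pearson r between pairs of members was 0.64 over the 12 arrays and 0.54 after group means were taken away. The 45 genes are therefore not 45 independent readings of the same contrast.

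**Figure D2:**
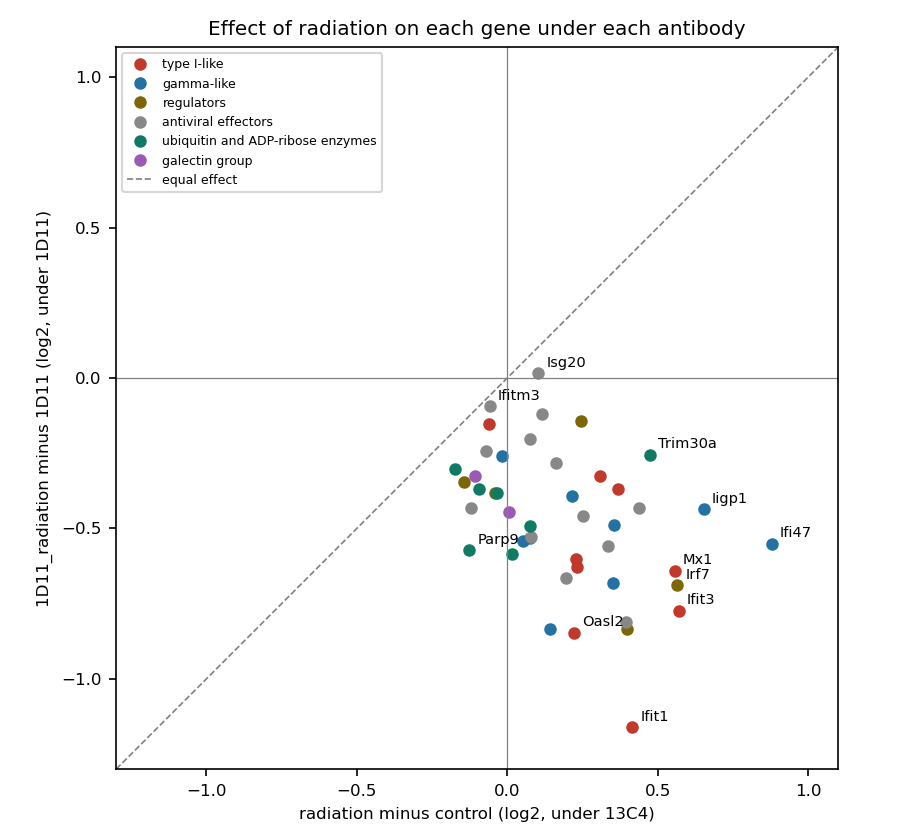
Each point is 1 member; the horizontal axis gives the radiation minus control difference and the vertical axis the 1D11_radiation minus 1D11 difference, both on the log2 scale. All 45 points lie below the dashed line of equal effect, and 44 lie below 0 on the vertical axis.

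**Figure D3:**
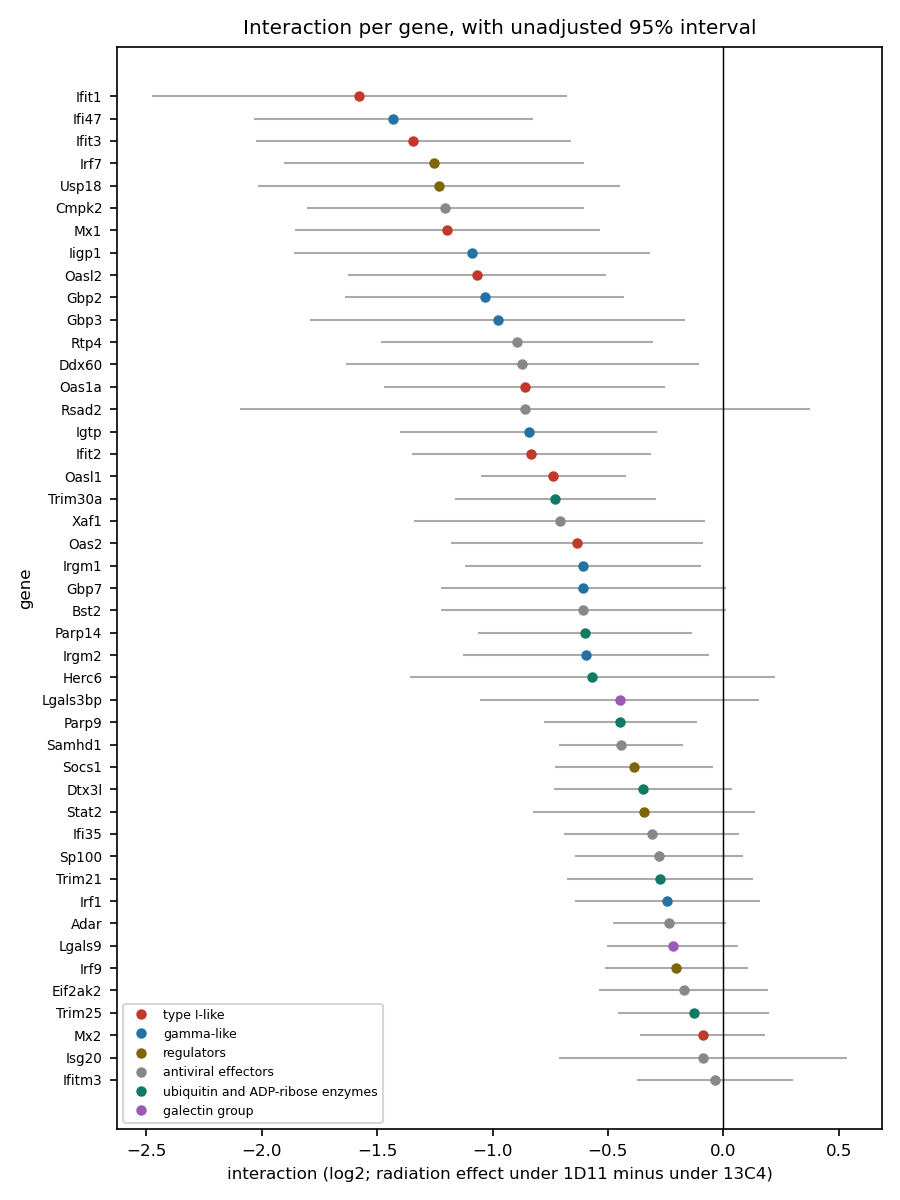
Points give the interaction of each member on the log2 scale and lines its unadjusted 95% interval from limma, in order of size. All points lie to the left of 0, from Ifit1 at -1.58 to Ifitm3 at -0.03, and the intervals of the members nearest 0 cross it.

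Type I-like and gamma-like members were both highest in 1D11 and next in radiation by group mean, while the lowest group was 1D11_radiation for type I-like and control for gamma-like members. The type I-like level per tumor was -0.12, 0.13 and -0.52 in control, 0.15, 0.53 and 0.27 in 1D11, -0.07, 0.19 and 0.32 in radiation, and -0.29, -0.25 and -0.34 in 1D11_radiation. The gamma-like level was -0.42, 0.16 and -0.59 in control, 0.17, 0.55 and 0.46 in 1D11, -0.01, 0.11 and -0.05 in radiation, and -0.27, 0.01 and -0.13 in 1D11_radiation. For type I-like genes the 1D11_radiation tumors lay below all 1D11 and all radiation tumors. For gamma-like genes they lay below all 1D11 tumors and overlapped the radiation tumors, through 1D11_radiation replicate 2 alone.

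**Figure D4:**
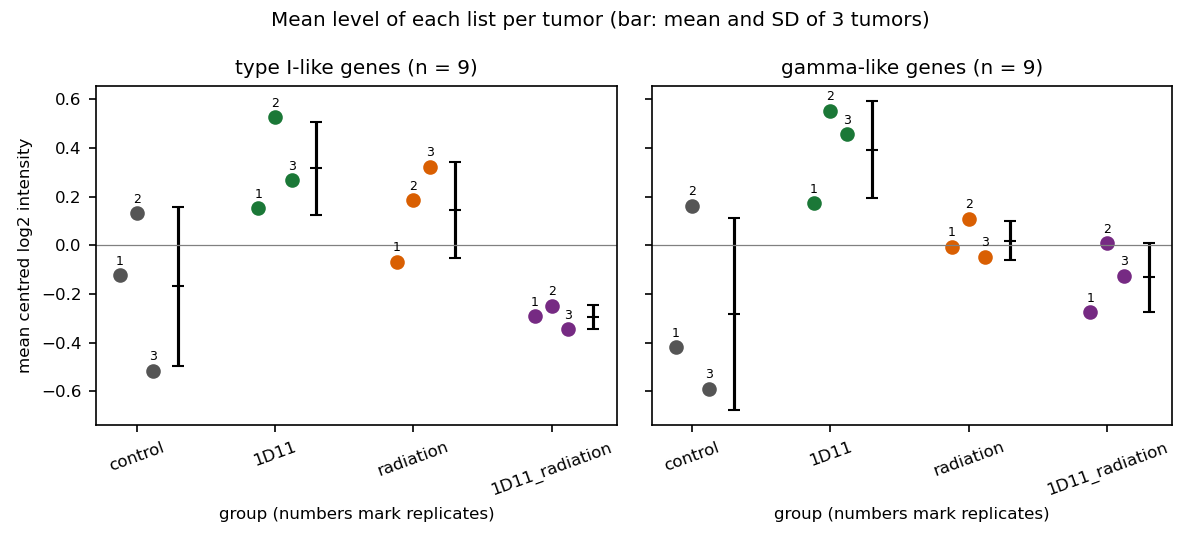
Points give the mean centred log2 intensity of 9 type I-like genes (left) and 9 gamma-like genes (right) in each tumor, numbered by replicate, with the mean and SD of 3 tumors beside them. The 1D11_radiation tumors sit between -0.34 and -0.25 for type I-like genes and between -0.27 and 0.01 for gamma-like genes.

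Between 1D11_radiation and radiation, 9 of 9 type I-like members had a lower mean, with a median of -0.47, and 7 were lower without overlap, against 6.12% of all genes. For gamma-like members 8 of 9 were lower, with a median of -0.14, and 0 were lower without overlap. That 0 rested on a single tumor. For Gbp3, Igtp, Irgm1, Irgm2 and Ifi47 only 1D11_radiation replicate 2 reached the range of the radiation tumors. Without it the gamma-like median was -0.21. Against control, 1D11_radiation was lower for 8 of 9 type I-like members and higher for 5 of 9 gamma-like members, with medians of -0.13 and 0.16. These medians rested on single control tumors: leaving out control replicate 3 gave -0.03 for gamma-like and -0.32 for type I-like members, and leaving out control replicate 2 gave 0.39 and -0.03. The interaction medians were alike, -0.86 and -0.84. The difference between the lists was not tested. The type I-like level minus the gamma-like level was 0.30 in control replicate 1 and 0.37 in radiation replicate 3, and between -0.26 and 0.08 in the other 10 tumors. Those 2 arrays also had the highest summed intensity of 8 skeletal muscle markers, 13113 and 21233, against 1580.4 to 8107 in the others. The part of muscle in this difference was not tested. Without radiation replicate 3 the type I-like median against radiation was -0.38.

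Ifit1, which binds viral RNA that lacks host cap methylation, had log2 intensities of 7.76, 8.26 and 6.89 in control and 8.48, 8.99 and 8.53 in 1D11. In the radiation tumors it was 7.78, 8.00 and 8.38, and in the 1D11_radiation tumors 7.59, 7.61 and 7.32. The 1D11 tumors lay above all others, and control replicate 3 lay below all others. Ifit1 differed by 1.03 ± 0.29 (SE, n = 3 per group) between 1D11 and control, with an adjusted p of 0.193 in limma, and by 0.66 without control replicate 3. It differed by -1.16 ± 0.29 between 1D11_radiation and 1D11, with an adjusted p of 0.103 in limma.

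Oasl1 and Oasl2, which resemble the 2'-5' oligoadenylate synthetases that make an alarm signal in virus-infected cells, ran in narrower ranges. Oasl1 was 7.08, 7.42 and 7.09 in control, 7.49, 7.54 and 7.50 in 1D11, 7.47, 7.61 and 7.62 in radiation and 7.06, 7.31 and 7.06 in 1D11_radiation. Its 6 single-treatment tumors thus lay above the 6 tumors of control and 1D11_radiation. The interaction of Oasl1 was -0.74 ± 0.14 (SE, n = 3 per group), with an adjusted p of 0.265 in limma. Oasl2 was 6.68, 7.25 and 6.51 in control, 7.40, 7.61 and 7.23 in 1D11, 6.85, 6.97 and 7.28 in radiation and 6.62, 6.42 and 6.66 in 1D11_radiation. Its 3 combined-treatment tumors lay below every 1D11 and radiation tumor, by -0.85 ± 0.18 against 1D11 with an adjusted p of 0.0766 in limma. Mx2, of the dynamin-like GTPase family, was the flattest of the type I-like genes, with an interaction of -0.09. Oas3 ran from 4.72 to 5.66 and was too dim to test.

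Among gamma-like members, Ifi47 is an immunity-related GTPase, a class that acts on the vacuoles of intracellular pathogens. It was 7.85, 8.18 and 7.37 in control and 8.66, 8.86 and 8.51 after radiation, and these groups did not overlap. It was 8.73, 9.01 and 8.83 in 1D11 and 8.00, 8.55 and 8.37 in 1D11_radiation. Ifi47 rose by 0.88 ± 0.19 (SE, n = 3 per group) after radiation under 13C4, with an adjusted p of 0.0432 in limma. The call was lost without any of 8 single tumors: control replicates 1 and 3 (adjusted p of 0.0588 and 0.0891), the 3 replicates of 1D11 (0.0581, 0.0625 and 0.0634), radiation replicates 1 and 2 (0.127 and 0.146) and 1D11_radiation replicate 3 (0.0671). With the macrophage level as a covariate the difference was 0.44, with an adjusted p of 0.383 in limma. Between 1D11 and control it differed by 1.06 ± 0.19, with an adjusted p of 0.111 in limma. The interaction was -1.43 ± 0.27, with an adjusted p of 0.265.

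Gbp2 is a guanylate-binding protein that attacks pathogen vacuoles. It was 8.61, 9.46 and 8.65 in control, 9.62, 9.92 and 9.91 in 1D11, 9.28, 9.30 and 9.20 in radiation and 8.94, 9.18 and 9.29 in 1D11_radiation. All 1D11 tumors lay above all others, and the irradiated groups overlapped each other. Gbp2 differed by 0.91 ± 0.19 (SE, n = 3 per group) between 1D11 and control, with an adjusted p of 0.127 in limma, and was called at 0.0167 without control replicate 2. Iigp1, another immunity-related GTPase, was 7.61, 8.71 and 7.76 in control, 8.81, 9.18 and 9.05 in 1D11, 8.76, 8.83 and 8.45 in radiation and 8.34, 8.83 and 8.56 in 1D11_radiation. Control replicate 2 lay above the other control tumors, inside the range of the irradiated groups. Iigp1 differed by 0.99 ± 0.25 between 1D11 and control, with an adjusted p of 0.160 in limma. The factor Irf1, listed with these genes, differed by 0.10 between 1D11 and control and by -0.02 between radiation and control. Over the 12 arrays its Pearson r was 0.35 with the other gamma-like members' level and 0.73 with the type I-like level.

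**Figure D5:**
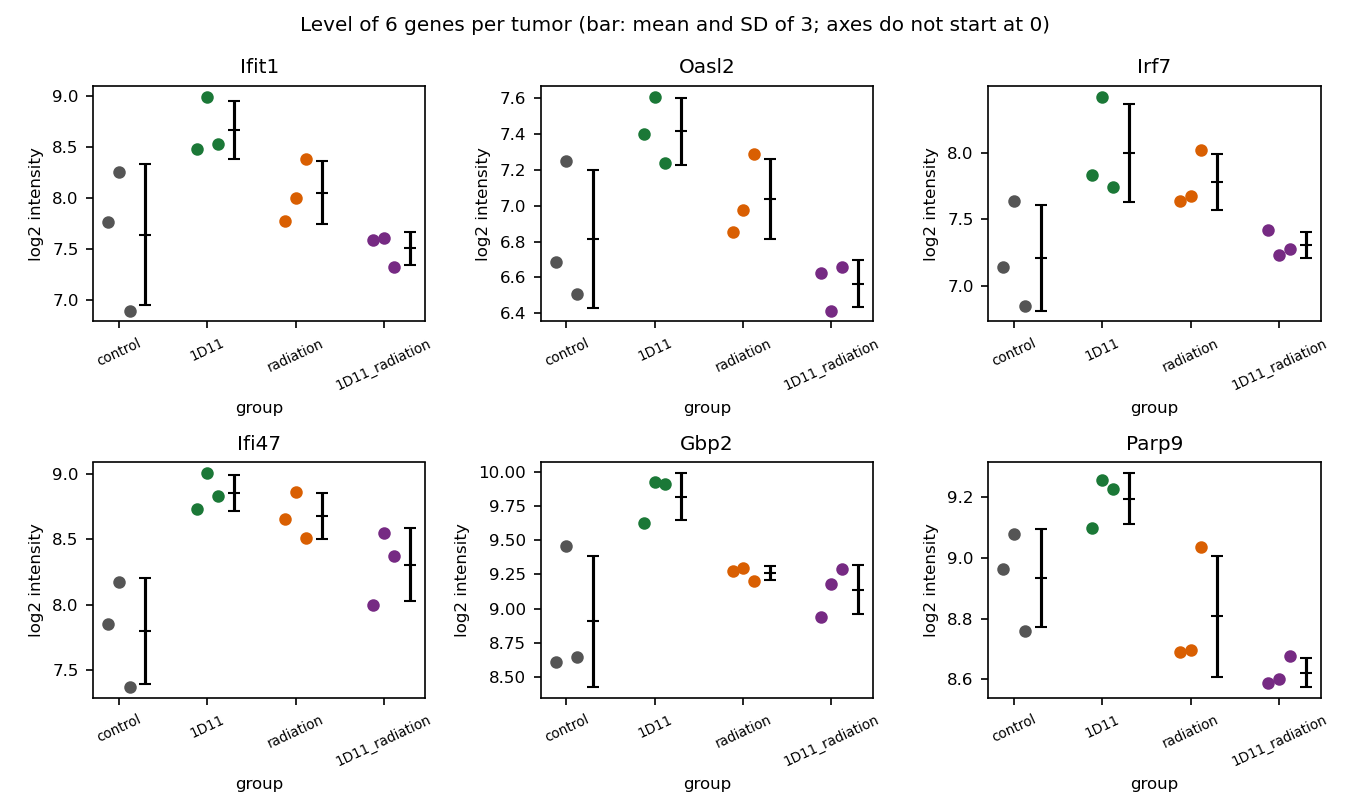
Points give the log2 intensity of 6 members in each tumor, with the mean and SD of 3 tumors per group; the vertical axes do not start at 0. Ifit1, Oasl2, Irf7 and Parp9 are low in all 3 of the 1D11_radiation tumors. Ifi47 and Gbp2 are lowest in control replicates 1 and 3, while Gbp2 in control replicate 2 lies above all irradiated tumors.

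Among the regulators, Irf7, the factor that amplifies type I interferon production, was 7.14, 7.64 and 6.86 in control, 7.83, 8.42 and 7.75 in 1D11, 7.64, 7.68 and 8.02 in radiation and 7.42, 7.24 and 7.28 in 1D11_radiation. Tumors given 1 treatment lay above those given none or both, with control replicate 2 just under the lowest radiation tumor. Irf7 had an interaction of -1.25 ± 0.30 (SE, n = 3 per group), with an adjusted p of 0.380 in limma. Usp18, which removes Isg15 from proteins and damps type I signalling at the receptor, was 7.70, 8.44 and 7.28 in control, 8.35, 8.93 and 8.41 in 1D11, 8.05, 8.25 and 8.31 in radiation and 7.69, 7.95 and 7.54 in 1D11_radiation. The 1D11_radiation tumors lay below all 1D11 and radiation tumors, and the control tumors ran from the lowest of all to above every radiation tumor. Usp18 differed by -0.83 ± 0.25 between 1D11_radiation and 1D11, with an adjusted p of 0.153 in limma.

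Irf9, the DNA-binding part of the type I complex, was 8.19, 8.41 and 8.21 in control, 8.24, 8.56 and 8.45 in 1D11, 8.21, 8.06 and 8.11 in radiation and 8.10, 8.18 and 7.93 in 1D11_radiation. Averaged over the antibodies, radiation tumors differed from unirradiated ones by -0.25 ± 0.07 (SE, n = 6 per group), with an adjusted p of 0.0590 in limma. For the other 2 regulators, Stat2 and the feedback inhibitor Socs1, the interactions were -0.34 and -0.39.

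The antiviral effectors did not share 1 pattern. Cmpk2, a mitochondrial nucleotide kinase, was 6.98, 7.17 and 6.501 in control, 7.42, 7.63 and 7.77 in 1D11, 7.44, 7.44 and 6.95 in radiation and 6.72, 7.07 and 6.60 in 1D11_radiation. The 1D11 tumors lay above all control and all 1D11_radiation tumors. Cmpk2 differed by -0.81 ± 0.19 (SE, n = 3 per group) between 1D11_radiation and 1D11, with an adjusted p of 0.0986 in limma. Samhd1, which breaks down deoxynucleotides, was 9.77, 9.66 and 9.49 in control, 9.83, 10.03 and 9.89 in 1D11, 9.81, 9.83 and 9.76 in radiation and 9.65, 9.53 and 9.73 in 1D11_radiation. Its interaction was -0.44 ± 0.12, with an adjusted p of 0.395 in limma.

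Eif2ak2, the kinase PKR that halts translation on double-stranded RNA, was the one member higher in 1D11_radiation than in radiation without overlap. It was 9.05, 9.30 and 9.09 in control, 9.70, 9.49 and 9.52 in 1D11, 8.79, 9.24 and 9.21 in radiation and 9.36, 9.33 and 9.29 in 1D11_radiation. Both 1D11 groups thus lay above the radiation group, and the 1D11_radiation tumors lay above the radiation tumors by 0.25 ± 0.12 (SE, n = 3 per group), with an adjusted p of 0.840 in limma. Without radiation replicate 1 that difference was 0.10, and the other 2 probe sets of Eif2ak2 gave 0.09 and 0.02. Rsad2, the radical SAM enzyme viperin, had the widest spread within groups. It was 9.17, 9.72 and 9.89 in control, 11.51, 10.23 and 9.70 in 1D11, 9.997, 9.90 and 9.48 in radiation and 10.25, 9.86 and 9.34 in 1D11_radiation. Its value in 1D11 replicate 1 stood above every other tumor, as did that of Isg20, 9.79. These 2 genes had Pearson r of 0.19 and -0.03 with the type I-like level over the 12 arrays.

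Among ubiquitin and ADP-ribose enzymes, Parp9, which works with the ubiquitin ligase Dtx3l in interferon signalling, was 8.96, 9.08 and 8.76 in control and 9.10, 9.26 and 9.23 in 1D11. It was 8.69, 8.70 and 9.04 in radiation and 8.59, 8.60 and 8.68 in 1D11_radiation. The 1D11_radiation tumors lay below all others, and radiation replicate 3 lay among the unirradiated tumors. Averaged over the antibodies, Parp9 fell by 0.35 ± 0.08 (SE, n = 6 per group) with radiation, with an adjusted p of 0.0213 in limma, where 7.26% of all genes were called. This average joins 2 unlike differences: Parp9 differed by -0.13 with radiation under 13C4 and by -0.57 under 1D11. The averaged difference was below 0 for 39 of 45 members and for 54.7% of all genes. Under 13C4 alone, 33 members were higher after radiation. Parp9 was the only member called in the averaged comparison, which is under the background. The call was lost without 1D11 replicate 2 (0.0567), radiation replicate 1 (0.0587) or radiation replicate 2 (0.0527). Without control replicate 3, 4 members were called, against 6.79% of all genes. Without 1D11 replicate 1 or radiation replicate 3 it was 2, against 4.81% and 9.1%, which is near or under the background. For the average effect of 1D11, 34 of 45 members had a higher mean, as did 59% of all genes, and none was called by limma, against 0.00785% of all genes.

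Parp14, an ADP-ribosyltransferase, was 8.66, 8.81 and 8.33 in control, 8.79, 9.16 and 9.0 in 1D11, 8.33, 8.72 and 8.78 in radiation and 8.35, 8.34 and 8.51 in 1D11_radiation. The 1D11_radiation tumors lay below all 1D11 tumors and overlapped the other groups. Parp14 differed by -0.59 ± 0.15 (SE, n = 3 per group) between 1D11_radiation and 1D11, with an adjusted p of 0.111 in limma. Trim30a, a TRIM protein that restrains inflammatory signalling, was 7.97, 8.43 and 7.77 in control, 8.42, 8.67 and 8.62 in 1D11, 8.43, 8.54 and 8.62 in radiation and 8.36, 8.31 and 8.27 in 1D11_radiation. Its irradiated tumors under 13C4 lay just above the control tumors, by 0.47 ± 0.14, with an adjusted p of 0.102 in limma.

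The 2 galectin-group members differed by 0.01 and -0.11 between radiation and control. Lgals3bp, a secreted binder of galectin 3, was 8.92, 9.55 and 8.73 in control, 8.98, 9.49 and 9.30 in 1D11, 8.94, 9.02 and 9.26 in radiation and 8.71, 8.95 and 8.77 in 1D11_radiation. Control replicate 2 was its highest tumor, and the 1D11_radiation tumors lay below the 1D11 tumors. Lgals9, which encodes galectin 9, was 7.70, 7.84 and 7.53 in control, 7.94, 8.06 and 8.05 in 1D11, 7.56, 7.65 and 7.53 in radiation and 7.55, 7.78 and 7.74 in 1D11_radiation. The 1D11 tumors lay above all others, by 0.33 ± 0.09 (SE, n = 3 per group) against control, with an adjusted p of 0.192 in limma.

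Some members lie close together in the genome. By gene order in RefSeq, 21 members fell into 8 groups of neighbours with at most 10 protein-coding genes between them. The Ifit2, Ifit3 and Ifit1 neighbours on chromosome 19 had interactions from -1.58 to -0.83, and the Gbp7, Gbp3 and Gbp2 neighbours on chromosome 3 from -1.03 to -0.61. The Parp14, Dtx3l and Parp9 neighbours on chromosome 16 had interactions from -0.60 to -0.35. Close paralogs can share probe signal, so neighbours of 1 family are not separate readings. By promoter letters, the 19 tested members with an ISRE match had a median interaction of -0.61 and the 18 without one -0.45. The 13 with a GAS match had a median of -0.44 and the 24 without one -0.72. These medians were not tested.

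Of the 46 measured members, 20 had more than 1 probe set. The second probe set of Gbp2 had an interaction of -1.02, near the -1.03 of the one used. The second probe sets of Trim21 and Rtp4, at mean log2 intensities of 6.81 and 4.29, had interactions of 0.15 and 0.03, where those used had -0.27 and -0.89. The second probe set of Cmpk2, at a mean of 5.42, had an interaction of -0.09 against -1.20 for the one used, and the mean over both gave -0.50 in place of -0.81 between 1D11_radiation and 1D11. Samhd1 had 5 probe sets. Those at means of 7.90 and 5.79 had interactions of -0.11 and -0.06, where the one used had -0.44. Those at 9.67 and 6.43 had -0.44 and -0.52. The second probe set of Parp14, at a mean of 4.95, had -0.03 against -0.60 for the one used.

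Upstream of the members, the interferons themselves gave little signal. Of 21 interferon genes listed, 10 had a probe set and 3 passed the limit on dim genes, and none was called. Ifng ran from 3.64 to 4.09 and Ifnb1 from 4.87 to 5.41 over the 12 tumors, both under the limit. Of the receptors and kinases, 8 of 10 were tested. Ifngr1, the ligand-binding chain of the gamma receptor, was 10.45, 10.57 and 10.20 in control, 10.07, 10.24 and 10.30 in 1D11, 9.71, 9.78 and 9.98 in radiation and 9.86, 9.94 and 9.71 in 1D11_radiation. All 6 irradiated tumors lay below all 6 unirradiated tumors. Ifngr1 fell by 0.58 ± 0.11 (SE, n = 3 per group) with radiation under 13C4, with an adjusted p of 0.0264 in limma. Averaged over the antibodies it fell by 0.47 ± 0.08, with an adjusted p of 0.00824. For Ifnar1, Ifnar2 and Ifngr2 the interactions lay between -0.07 and -0.01, and none of them was called.

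Of 47 further interferon-induced genes listed, 37 were tested. The interaction was below 0 for 33 of these, with a median of -0.38, and 1D11 was above control for 33. Between radiation and control, 4 were called higher, against 1.48% of all genes, and 0 lower, against 0.911%. Cxcl9, a chemokine that draws T cells and is induced by interferon gamma, was 5.33, 6.04 and 4.67 in control, 7.59, 7.30 and 7.35 in 1D11, 8.34, 7.99 and 6.41 in radiation and 7.07, 8.03 and 7.53 in 1D11_radiation. All treated tumors lay above all control tumors. Cxcl9 rose by 2.23 ± 0.47 (SE, n = 3 per group) after radiation under 13C4, with an adjusted p of 0.0348 in limma, and by 2.20 ± 0.47 in 1D11_radiation against control, with an adjusted p of 0.0411. Between 1D11_radiation and 1D11 it differed by 0.13.

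The other 3 genes called higher after radiation under 13C4 were Gbp6, a guanylate-binding protein, by 0.92 (adjusted p of 0.0189 in limma), Slfn1 by 0.58 (0.0327) and Nlrc5, which drives MHC class I genes, by 0.97 (0.0410). Averaged over the antibodies, Parp12 fell by 0.48 with radiation (0.0183), Psmb10, an immunoproteasome subunit, fell by 0.34 (0.0125), Tapbp, the peptide loader tapasin, fell by 0.39 (0.0478), and Nmi fell by 0.44 (0.00813). Cxcl10, a chemokine that answers to both interferon types, was 8.42, 8.35 and 7.26 in control, 8.65, 9.37 and 8.85 in 1D11, 8.63, 8.78 and 8.28 in radiation and 7.88, 8.10 and 7.93 in 1D11_radiation. It followed the order of the type I-like members, highest in 1D11 and low in 1D11_radiation. Its interaction was -1.54 ± 0.40 (SE, n = 3 per group), with an adjusted p of 0.393 in limma.

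The genes most alike to the members outside the list were found by Pearson r over the 12 arrays, which share the 4 groups. To the type I-like level these were Slfn8 (0.94), Phf11d (0.94), Sec14l1 (0.93), Ifit1bl1 (0.90) and Apobec1 (0.90). To the gamma-like level they were Ifit1bl1 (0.96), Ifih1 (0.90), Habp4 (0.89), Gnpda1 (0.89) and Slfn8 (0.88). Within the lists, the median r between pairs was 0.77 for type I-like and 0.85 for gamma-like members. Between a type I-like and a gamma-like member it was 0.67. After group means were taken away these were 0.68, 0.80 and 0.59.

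Markers of other cell types differed between the groups. The summed intensity of 8 macrophage markers was 13853 to 17687 in control, 17397 to 23352 in 1D11, 20223 to 22809 in radiation and 15442 to 23394 in 1D11_radiation. The interaction was below 0 for all 8, with a median of -0.65. With the macrophage level as a covariate, the members' median interaction was -0.34, the 1D11 against control median was 0.20, and the radiation against control median was -0.01. Of these markers, Fcgr1 had group means of 8.51 in control, 9.37 in 1D11, 9.35 in radiation and 9.01 in 1D11_radiation, while Mrc1 was highest in 1D11_radiation, at 12.33. A marker that moves with the members takes part of their change into the covariate. The fit therefore cannot separate macrophage number from a change that markers and members share. The summed intensity of 7 keratinocyte markers, of which Krt1 and Krtdap were dim, was 500.8 to 3405 in 1D11 and 484.0 to 565.0 in the other groups. Without the 1D11 replicates 1 and 3, where these markers were high, the members' median interaction was -0.77. The summed intensity of 5 neutrophil markers was 1525 to 6851 in 1D11, 4282 to 5698 in 1D11_radiation and 1637 to 3639.6 in the other groups. The sum of 4 monocyte markers was 4331 to 4858 in control, 6007 to 7080.1 in 1D11, 4623 to 6037 in radiation and 5079.5 to 6862 in 1D11_radiation. Plasmacytoid dendritic cell markers, a type known for type I interferon, summed to 5011 to 5939.6 in control, 5637 to 6193 in 1D11, 3871 to 5177 in radiation and 4364 to 4819.7 in 1D11_radiation, with Ccr9 and Spib dim. That sum mostly follows Tcf4, at a mean log2 intensity of 12.12, where the next brightest, Klk1, had 7.75. Siglech had group means of 6.12 in control, 5.70 in 1D11, 6.12 in radiation and 5.92 in 1D11_radiation. Its 1D11 tumors lay below all control tumors. By group mean Ly6d was highest in 1D11 (6.02) and Cox6a2 in radiation (7.81), so these means did not share 1 order. Single tumors weighed on both. Ly6d was highest in 1D11 replicate 3, the tumor with the keratinocyte sum of 3405, and the other 1D11 tumors lay inside the radiation range. Cox6a2 was highest in radiation replicate 3 and then control replicate 1, the arrays with the highest skeletal muscle sums. The part of skin and muscle in Ly6d and Cox6a2 was not tested. Cytotoxic lymphocyte markers, a source of interferon gamma, summed to 447.7 to 599.6 in control, 627.2 to 864.0 in 1D11, 1117 to 1198 in radiation and 788.4 to 1268 in 1D11_radiation, with Ncr1, Klrk1 and Eomes dim. The sum of 6 T cell markers, with Cd3g, Cd2 and Cd5 dim, was 245.0 to 273.4 in control, 242.9 to 282.4 in 1D11, 315.7 to 362.7 in radiation and 268.1 to 310.1 in 1D11_radiation, so the radiation tumors were the highest. The sum of 6 endothelial markers was 1015 to 1439 in control, 1028 to 1215 in 1D11, 841.8 to 902.7 in radiation and 978.0 to 1053 in 1D11_radiation, so the radiation tumors were the lowest. The sum of 8 genes of stress and RNA quality overlapped between all groups, at 9479 to 10419 in control, 8023 to 10253 in 1D11, 7711 to 12838 in radiation and 9534 to 10506 in 1D11_radiation. In that list Hspa1b, a heat shock protein, had log2 intensities of 11.08 to 11.41 in control, 9.995 to 10.26 in 1D11, 10.62 to 11.47 in radiation and 10.35 to 10.78 in 1D11_radiation, and the 1D11 tumors lay below all others. The sum of 5 epithelial markers, fixed for the tumor cells and with Cdh1 dim, was 7778 to 8858 in control and 6788 to 10787 in 1D11. It was 10184 to 10702 in radiation and 9160 to 11527.5 in 1D11_radiation, so both irradiated groups lay above control. The part of tumor cells, macrophages, neutrophils, monocytes and plasmacytoid dendritic cells in the members' levels was not tested. Nor was the part of cytotoxic lymphocytes, T cells, endothelial cells and stress.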

How the data were processed

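Whole-tumor RNA (6 µg per sample, per the labels' protocols) was measured on 12 Affymetrix arrays with 1 color, each taken here as 1 tumor. The titles of the treated samples speak of cells, and the source names speak of tumors. The deposited values are intensity per probe set on a linear scale. How the authors corrected background, normalized and summarised them is not stated in the labels. The 12 arrays had medians of 62.3 to 66.1, and their sorted log2 values differed by at most 0.129 between arrays, so no step was added before log2 was taken. The precision is limited by the 3 arrays per group. A single symbol was given to 34945 probe sets, several to 932 and none to 9160. In limma 3.58.1 (R 4.3.3), 1 mean per group was fitted to the 12 arrays with lmFit and eBayes, and 8 contrasts were tested two-sided. Calls were made at an adjusted p under 0.05 (Benjamini-Hochberg, over the 12735 genes tested in each contrast). The test was checked on simulated data. The members and lists were chosen with earlier results of these data known. Members called in any contrast, and the 3 with the largest F over the groups in each role class, are given with values in all tumors. Pathway genes are named where called, beside a fixed set of ligands, receptors and chemokines. Replicate numbers were not used as pairs. Of 18 same-number pairs, 3 had a correlation of deviations over 0.1, and the values ran from -0.31 to 0.27. This does not settle whether tumors of the same number shared a batch. Alternatives were quantile normalization, other filters, the mean over probe sets, the 2 groups alone, array weights, a replicate block and tumors left out. Chosen after seeing the data were the run without 1D11 replicates 1 and 3 and those with a keratinocyte or macrophage covariate.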

Additional observations from a re-analysis of the deposited data

How the results depend on the processing

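With tumors left out singly, or in the pairs control 1 with radiation 3 and 1D11 1 with 1D11 3, the interaction was below 0 for 43 to 45 members, with a median of -0.78 to -0.47. For type I-like members that median was -1.14 to -0.71. The 1D11_radiation minus 1D11 median was -0.61 to -0.35 for all members, with 44 to 45 lower, and -0.87 to -0.51 for type I-like ones. The 1D11 minus control median was 0.29 to 0.57 for all and 0.32 to 0.75 for type I-like members. The radiation minus control median was 0.07 to 0.25 for all, with 26 to 38 higher, and 0.081 to 0.48 for gamma-like members. The 1D11_radiation minus radiation median was -0.22 to -0.15. Counts of members called are given without the pair of 1D11 tumors, beside the share of all genes called over the same runs. They ran from 0 to 5 for radiation against control (0.157% to 4.47%) and for 1D11 against control (0% to 0.463%). For 1D11_radiation against 1D11 (0.00785% to 3.29%) and for the average effect of radiation (3.2% to 11.1%) they ran from 0 to 4. For 1D11_radiation against control (0.133% to 3.33%) they were 0 to 1, and for the interaction (0% to 0.165%) they stayed at 0. Single genes near 0 changed sign: in radiation against control Eif2ak2 ran from -0.18 to 0.077, Lgals3bp from -0.16 to 0.25 and Parp14 from -0.12 to 0.15, and in 1D11_radiation against radiation Iigp1 ran from -0.23 to 0.018 and Irf9 from -0.11 to 0.014.

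Among other settings, array weights gave 29 members called in 1D11_radiation against 1D11 (11.7% of all genes called), 6 in the interaction (0.958%), 4 in the average effect of radiation (17.1%) and 3 in radiation against control (6.99%), the last 2 counts at or under the share of all genes. Leaving out the dimmest 50 percent of genes gave 1 in 1D11_radiation against 1D11 (0.627%) and 3 in the average effect of radiation (11.1%). Fitting the 2 groups alone gave 3 in 1D11_radiation against 1D11 (0.934%) and 0 in radiation against control, where only 0.0471% of all genes were called. The mean over probe sets also gave 0 there (1.52%), and 2 in the average effect of radiation (6.42%). The keratinocyte covariate gave 0 in radiation against control (1.33%) and in the average effect of radiation (2.14%). With the macrophage covariate, 0 were called in radiation against control (0.0785%) and 3 in the average effect (6.56%). There, 21 members were higher in radiation than in control. The medians were -0.014 for radiation against control (0.067 for type I-like) and 0.20 for 1D11 against control (0.20 for type I-like, 0.37 for gamma-like). For the interaction the median was -0.34 (-0.56 for type I-like, -0.36 for gamma-like). In that fit Cmpk2 (-0.038), Lgals3bp (-0.28) and Parp14 (-0.19) changed sign in radiation against control, as did Lgals3bp in 1D11 against control (-0.069), Lgals9 in the interaction (0.046), and Iigp1 (0.044) and Irf9 (0.0029) in 1D11_radiation against radiation. Quantile normalization turned Lgals3bp (-0.013) and Parp14 (-0.0037) in radiation against control, and array weights turned Lgals3bp (-0.0019). The causes were not tested. With the replicate number as a block, Ifi47 (adjusted p of 0.0319 in limma) and Parp9 (0.0433) were called as before, and no other member's call changed. Over all genes, the share called fell from 2.39% to 1.62% for radiation against control. For the average effect of radiation it fell from 7.26% to 5.17%. No scanner files were used, so signal over background is not known.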
